A study of Mus musculus with 10 samples.

Results

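The 10 genes described here encode fibronectin, dermatopontin and matricellular proteins of the extracellular matrix: Fn1, Dpt, Postn, Sparc, Sparcl1, Tnc, Thbs1, Thbs2, Tgfbi and Mgp. They were found by symbol in the deposited gene table, where each had 1 row, so they make up 10 of 40503 genes. All 10 passed the filter on low values. The set was chosen by protein family and with the measured differences in level between the KO and WT libraries in view. For that reason those differences are given as a description of these libraries, and the adjusted p-values beside them, which come from a fit across all tested genes, are not independent evidence.

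The libraries came from gonadal white adipose tissue, the fat beside the ovaries and uterus, of female C57BL/6 mice aged 12 weeks. In 5 mice, of the genotype written Med19 KO, an inducible adipose deletion (MED19-iAKO) was switched on with tamoxifen at 100 mg/kg for 5 days, and the fat was taken 14 days later. The other 5 mice were controls of the genotype WT, and the labels do not say whether they received tamoxifen, nor which promoter drives the deletion. Libraries are called by their label and animal number, such as KO 7 or WT 86.

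Per library, 14440547 to 20178082 reads assigned to genes could be worked back from the RPKM values, which are reads scaled to gene length and to the library's assigned reads. Each library's median correlation with the others of its group, over log2 values of all tested genes, was 0.960 to 0.969. Med19 ran from 5.58 to 7.99 RPKM under the KO label and from 5.62 to 7.64 RPKM under WT, so its level did not separate the labels (exact permutation p = 0.881, 2-sided, n = 5 a group), and "KO-labelled" is used throughout. Every direction rests on those labels. Adipocyte genes marked the tissue in every library: the summed level of 10 adipocyte markers was 5332 to 5588 RPKM in the KO-labelled libraries and 13383 to 19456 RPKM in WT. Of these markers 9 of 10 were called lower, by most in Retn (log2 change -2.37), Cfd (-2.15), Cidec (-2.08) and Lipe (-1.52). Over all tested genes 1.95% were called lower. The summed level of 8 ovary, oviduct and uterus markers was 1.00 to 2.20 RPKM over all 10 libraries, and Hoxa11, the one of them that was tested, had 0.931 RPKM with the KO label and 0.957 with WT.

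Fibronectin is a large secreted dimer that cells pull into fibrils through integrins, and collagen, fibrillin and growth factor carriers are laid down on those fibrils. Matricellular proteins sit in the same matrix but carry little load: thrombospondins, tenascin-C, periostin, SPARC and their relatives bind integrins, proteases and growth factors and change how cells hold on to the matrix. In fat, the matrix encloses each adipocyte and is made mainly by stromal cells, with a part from adipocytes, vessel cells and macrophages. Tissue RNA does not separate these sources, and fewer cells of a type and less RNA per cell cannot be told apart.

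Fn1 is spliced at 3 places, and these sequences set its forms apart. The extra domain A (EDA) and extra domain B (EDB) exons are each included or skipped whole, and the variable region is V120, V95 or V0 by the part of it that is kept. EDA-bearing fibronectin is the form made by activated fibroblasts and during repair, and the stretch found only in V120 holds the connecting segment bound by alpha4 integrins. The sequences are from GENCODE M21 transcripts on GRCm38, chromosome 1, minus strand, written 5′ to 3′. The EDA exon lies at chr1:71603660-71603929 (270 bases), the EDB exon at chr1:71613763-71614035 (273 bases) and the stretch kept in V120 but not in V95 at chr1:71597673-71597747 (75 bases). All 3 are coding. Capitals mark the codons of the integrin-binding loop of EDA and of the leucine-aspartate-valine site of V120, and nothing is marked in EDB.
EDA exon: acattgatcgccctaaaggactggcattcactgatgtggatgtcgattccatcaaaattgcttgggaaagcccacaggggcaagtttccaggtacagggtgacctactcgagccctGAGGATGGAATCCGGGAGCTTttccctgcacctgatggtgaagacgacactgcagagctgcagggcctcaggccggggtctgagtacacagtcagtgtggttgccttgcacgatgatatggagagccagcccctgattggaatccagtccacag
EDB exon: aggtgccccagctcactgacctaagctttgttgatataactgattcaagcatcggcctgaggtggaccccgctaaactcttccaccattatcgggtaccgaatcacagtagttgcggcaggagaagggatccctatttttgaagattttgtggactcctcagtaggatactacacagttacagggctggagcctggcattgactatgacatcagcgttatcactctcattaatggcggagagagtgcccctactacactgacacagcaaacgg
V120-only stretch: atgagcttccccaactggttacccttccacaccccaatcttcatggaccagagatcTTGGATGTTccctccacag

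The level of the 10 genes spanned from Tnc at 5.46 ± 1.62 RPKM in WT (mean ± SD, n = 5) to Fn1 at 1155 ± 146 RPKM. RPKM is a level per length of gene, so an order of genes depends on the lengths used. The length behind Fn1's gene value was 11685 bases, and its longest transcript has 8315. By transcript, Thbs2 had 36.5 RPKM on average in WT, and Postn's leading coding transcripts had 29.5, 8.86 and 4.22. The order given here is that of the gene values. In WT the order was Fn1, Sparc, Mgp, Tgfbi, Sparcl1, Thbs1, Dpt, Thbs2, Postn and Tnc. Neighbouring ranges over the 5 WT libraries were separate between Fn1 and Sparc, between Mgp and Tgfbi, between Thbs2 and Postn and between Postn and Tnc, and they overlapped between all other neighbours. In the KO-labelled libraries Dpt stood at rank 4 instead of 7, ahead of Tgfbi, Sparcl1 and Thbs1, and the other genes kept their order among themselves. Fn1 alone took 1.12% to 1.78% of assigned reads in a library, and the 10 genes together 1.49% to 2.20%. Reads behind each value ran from 460 (Tnc in WT 89) to 347095 (Fn1 in KO 4).

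**Figure D1:**
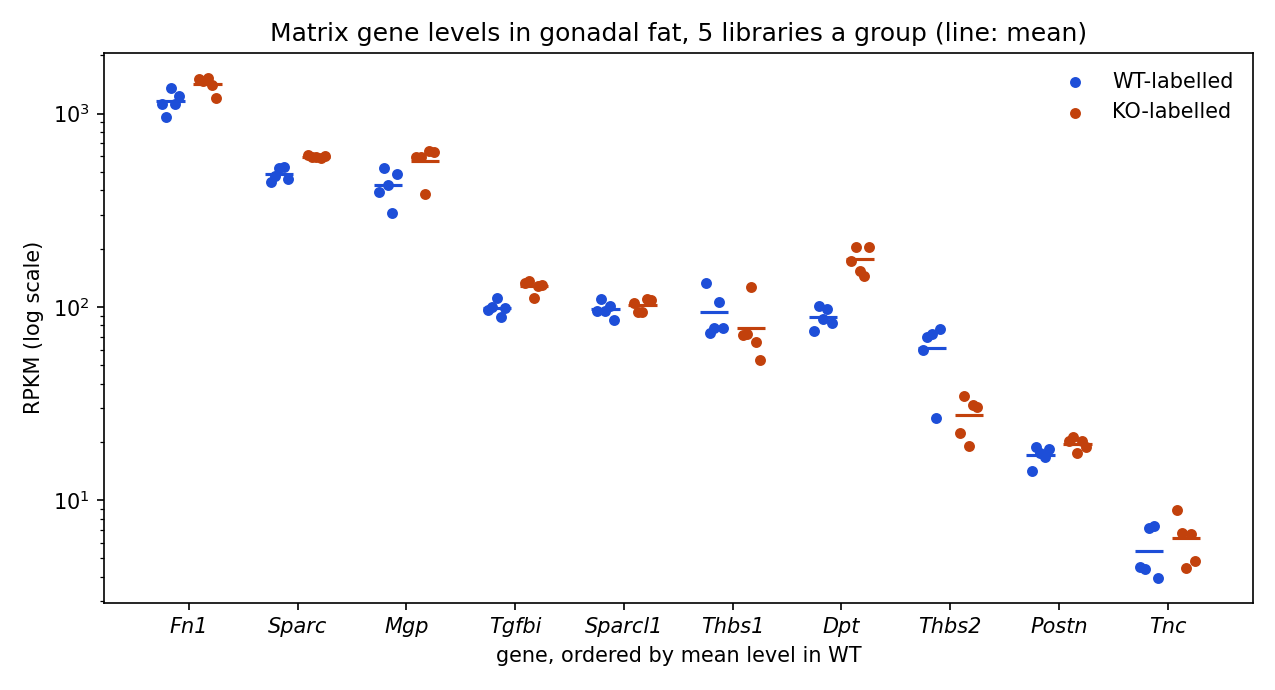
Level of each gene in RPKM (vertical, log scale) in the 5 WT and 5 KO-labelled libraries; points are libraries and lines are group means. In Dpt, Sparc and Tgfbi the groups do not overlap, by the narrowest margin in Tgfbi, and 4 of 5 WT libraries of Thbs2 lie above all KO-labelled ones.

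Across the 10 genes, 3 were called higher in the KO-labelled libraries at an adjusted p under 0.05 by limma (Dpt, Sparc and Tgfbi), where 4.00% of the 17038 tested genes were called higher. None was called lower, where 1.95% of tested genes were (5.95% in either direction). At an unadjusted p under 0.05, 6 of the 10 were higher and 1, Thbs2, was lower, where 19.9% of tested genes were higher and 4.82% lower. A fit with voom on the recovered reads likewise called 3 higher and 0 lower. That fit used the library sizes behind the RPKM values, so it does not bear on the scaling between libraries. In the same 3 genes every KO-labelled library lay above every WT library on deposited RPKM, and 6.96% of tested genes did so. The median log2 change of the 10 genes was 0.25, beside 0.09 over all tested genes, and 8 of 10 were above 0, as were 68.7% of tested genes. With median-ratio scaling between libraries the median of the 10 was 0.16 against 0.01 over all genes, Sparcl1 turned to -0.0196, and Dpt alone stayed called. Over all genes, the split of 681 called higher and 332 lower became 103 and 417 with that scaling.

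**Figure D2:**
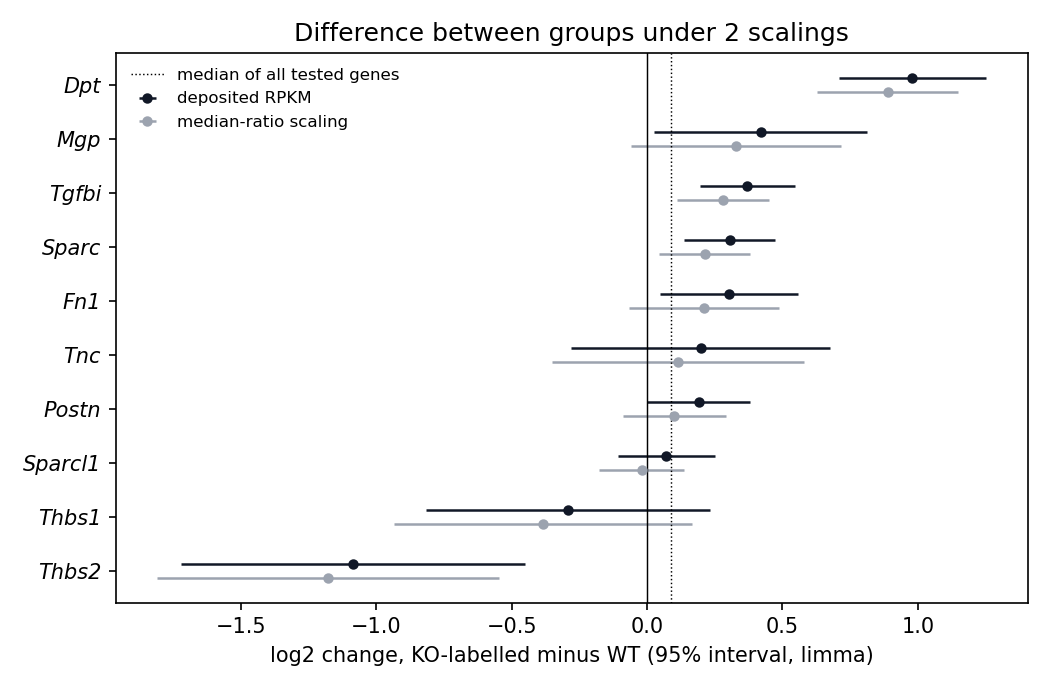
Log2 change of each gene between KO-labelled and WT libraries (horizontal, with limma's 95% interval) on deposited RPKM and after median-ratio scaling; the dotted line is the median of all tested genes, 0.09. Dpt and Thbs2 stand farthest from 0 on either side under both scalings, and Sparcl1 lies at 0.07 and -0.0196.

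Fn1 was the most abundant of the 10 genes in all 10 libraries. It was at 1504, 1470.0, 1528, 1403 and 1197 RPKM in KO 1, 4, 7, 8 and 17, and at 1120.3, 954, 1349, 1126 and 1226 RPKM in WT 2, 9, 19, 86 and 89. KO 17 fell within the WT range, and the other 4 KO-labelled libraries lay above it. The log2 difference was 0.30 (SE 0.11), a level 1.23-fold that of WT (95% interval 1.03 to 1.47), and it was not called (limma adjusted p = 0.137).

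The deposited transcript table held 17 transcripts of Fn1, of which 7 span the whole message and 10 are partial. The V95 form without EDA or EDB, ENSMUST00000190780, was the most abundant, at 753 RPKM on average in the KO-labelled libraries and 595 in WT. Next among the full-length forms in WT were ENSMUST00000055226, with EDB, EDA and V120, at 117 RPKM in the KO-labelled group and 116 in WT, and ENSMUST00000188894, with EDA and V120 but no EDB, at 126 and 104 RPKM. The V120 form without EDA, ENSMUST00000186129, ranged from 14.4 to 154 RPKM within WT and from 6.74 to 225 RPKM within the KO-labelled group. It was highest in KO 1, KO 7 and WT 89, at 225, 156 and 154 RPKM. In those libraries the partial model ENSMUST00000186940 was lowest, at 269, 324 and 323 RPKM. Whether this spread lies between animals or in how reads were divided among transcript models was not tested. Full-length forms made up 39.2% to 57.3% of the summed RPKM of Fn1 transcripts in a library. The rest went to partial models such as ENSMUST00000186940 (1350 bases, 554 RPKM in WT) and ENSMUST00000187627 (1190 bases, annotated as a target of nonsense-mediated decay, 409 RPKM in WT).

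Among the full-length forms the shares of the exon classes overlapped between the groups. Forms with EDA made up 20.7%, 22.4%, 20.2%, 24.2% and 23.6% in KO 1, 4, 7, 8 and 17, and 25.5%, 24.1%, 26.3%, 25.8% and 20.7% in WT 2, 9, 19, 86 and 89. The groups overlapped, with means of 22.2% ± 1.8 and 24.5% ± 2.3 (SD, n = 5 each), a difference of -2.29 percentage points (exact permutation p = 0.111, 2-sided; adjusted over the 5 classes compared, 0.185). EDB, carried by a form that also has EDA, was in 10.5% ± 1.9 of KO-labelled and 12.8% ± 1.7 of WT full-length RPKM (exact permutation p = 0.0794; adjusted 0.185).

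V95 was the leading variable region, at 67.7% ± 7.4 and 66.5% ± 3.0 (n = 5 each; exact permutation p = 0.746; adjusted 0.921). V120, which holds the leucine-aspartate-valine site printed above, was at 30.1% ± 6.5 and 29.7% ± 3.3 (exact permutation p = 0.921), and V0 at 2.17% ± 0.98 and 3.75% ± 1.62 (exact permutation p = 0.0952; adjusted 0.185). The smallest p these groups allow is 0.00794. The 5 classes were defined after the transcript values had been seen, and the 3 variable-region shares add up to the whole. No source used here names the program that divided reads among transcripts, so these shares are the authors' estimates with an unknown error.

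**Figure D3:**
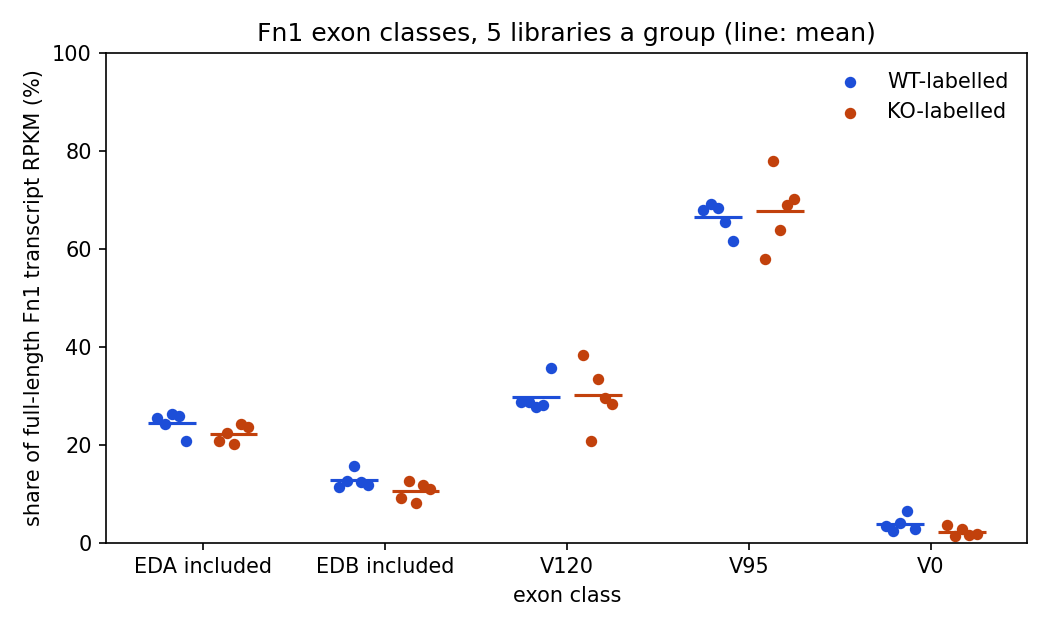
Share of full-length Fn1 transcript RPKM (vertical, percent) held by each exon class in the 5 WT and 5 KO-labelled libraries; points are libraries and lines are group means. V95 forms lead in every library, and the groups overlap in all 5 classes.

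In the fit over the whole transcript table, 0 of 14 shares of transcripts of the 10 genes that could be tested were called by limma, and 0 had an unadjusted p under 0.05 (the smallest was 0.257). The background was low as well, with 0.00885% of 33917 transcript shares called. By level, 1 of 33 tested transcripts of these genes was called, that of Dpt (ENSMUST00000027861; log2 change 0.92, SE 0.13, limma adjusted p = 0.0118), where 0.544% of 44475 transcripts were called. Tgfbi, Thbs2, Sparcl1 and Mgp also had a single transcript in the table. Sparc was split among 3 coding transcripts, which held 52.7%, 30.6% and 12.3% of its transcript RPKM in WT and 48.6%, 35.0% and 11.3% in the KO-labelled libraries. Of Postn's coding transcripts, ENSMUST00000117373 led with 43.4% to 75.9% in WT libraries and 43.3% to 80.4% in KO-labelled ones.

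Dpt encodes dermatopontin, a small matrix protein that binds decorin and fibronectin and promotes fibril assembly. It had the largest rise among the 10 genes. Its level was 173, 205, 153, 144 and 203 RPKM in KO 1, 4, 7, 8 and 17, and 74.8, 101, 86.3, 96.8 and 82.7 RPKM in WT 2, 9, 19, 86 and 89. The groups were well apart: the lowest KO-labelled library exceeded the highest WT library by more than the whole WT range. The log2 change was 0.98 (SE 0.12, limma adjusted p = 0.00164), a level 1.97-fold that of WT (95% interval 1.63 to 2.38). The call held in all 10 runs that left out a library, with log2 changes of 0.92 to 1.05, and under median-ratio scaling (0.89).

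Tgfbi and Postn encode paralogous proteins built of fasciclin domains, which bind integrins and collagen. Tgfbi, named for its induction by TGFb, was at 133, 136, 111.3, 127 and 130.2 RPKM in KO 1, 4, 7, 8 and 17, and at 96.3, 99.1, 111.3, 88.3 and 98.3 RPKM in WT 2, 9, 19, 86 and 89. KO 7 and WT 19 had nearly the same level, at 111.32 and 111.28 RPKM, and the other 4 KO-labelled libraries lay clearly above WT. The log2 change was 0.37 (SE 0.08, limma adjusted p = 0.0274). This call held in 4 of 10 runs that left out a library and ended with median-ratio scaling (log2 change 0.28, adjusted p = 0.0938) and with quantile normalization (0.28, adjusted p = 0.0692). Each of KO 1, 8 and 17 and WT 9, 86 and 89 ended it when left out, with adjusted p up to 0.0762. With median-ratio scaling KO 7 lay below WT 19, at 111.47 against 111.77, so the groups then overlapped.

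By gene value Postn, which encodes periostin, was several-fold lower than Tgfbi, with lengths of 7833 and 2678 bases behind the values. The gap was smaller by transcript. In WT Tgfbi's single transcript had 76.6 RPKM on average, and Postn's leading coding transcripts had 29.5, 8.86 and 4.22. The gene value of Postn was 20.1, 21.2, 17.4, 20.2 and 18.8 RPKM in KO 1, 4, 7, 8 and 17, and 14.1, 18.9, 17.6, 16.6 and 18.4 RPKM in WT 2, 9, 19, 86 and 89. In 3 KO-labelled animals Postn exceeded its highest WT level. The log2 difference was 0.19 (SE 0.09, limma adjusted p = 0.200), and 0.12 without WT 2 (adjusted p = 0.319). By gene value the ratio of Tgfbi to Postn was 6.54 ± 0.26 in the KO-labelled libraries and 5.82 ± 0.73 in WT (SD, n = 5 each). The ranges of this ratio overlapped.

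Sparc and Sparcl1 encode related calcium-binding glycoproteins. SPARC binds collagen and holds back adipocyte differentiation in cultured cells, and hevin, the product of Sparcl1, is counter-adhesive. Sparc was at 608, 598, 593, 589 and 606 RPKM in KO 1, 4, 7, 8 and 17, and at 441, 477, 523, 530.2 and 457 RPKM in WT 2, 9, 19, 86 and 89. The KO-labelled libraries were tightly grouped, with a coefficient of variation of 1.36% against 8.12% in WT, and all lay above WT. The log2 change was 0.31 (SE 0.08, limma adjusted p = 0.0444). This call stood just inside the threshold: it ended in all 10 runs that left out a library (adjusted p from 0.0532 to 0.103), with no filter on low values (0.0541) and with median-ratio scaling (log2 change 0.21, adjusted p = 0.188).

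Sparcl1 was not called. It was at 104, 93.7, 94.1, 109 and 108 RPKM in KO 1, 4, 7, 8 and 17, and at 94.6, 109.6, 95.5, 100.4 and 84.8 RPKM in WT 2, 9, 19, 86 and 89. The ranges lay almost on top of each other, and the log2 difference was 0.07 (95% interval -0.11 to 0.25, limma adjusted p = 0.640). Leaving out a library moved it between 0.0250 (without WT 89) and 0.12 (without WT 9). The ratio of Sparc to Sparcl1 ran from 5.38 to 6.38 in the KO-labelled libraries and from 4.35 to 5.48 in WT.

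The thrombospondin genes Thbs1 and Thbs2 lay lower in the KO-labelled group on average, and neither was called. Their products are large trimers that bind CD36 and CD47 and restrain vessel growth, and thrombospondin-1 can also activate latent TGFb. Thbs2 was at 22.3, 34.5, 18.9, 30.9 and 30.3 RPKM in KO 1, 4, 7, 8 and 17, and at 59.9, 69.4, 72.7, 26.6 and 76.6 RPKM in WT 2, 9, 19, 86 and 89. WT 86 lay inside the KO-labelled range, and the other 4 WT libraries were far above it. The log2 difference was -1.09 (SE 0.29), a level 0.471-fold that of WT (95% interval 0.303 to 0.732), with a limma adjusted p of 0.0524.

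Whether Thbs2 was called rested on that library and on settings near the threshold. Without WT 86 the log2 change was -1.36 (limma adjusted p = 0.00322), and in the other 9 runs that left out a library it was not called, at adjusted p of 0.0536 to 0.118. With a filter at 1 RPKM the adjusted p was 0.0482, with array weights 0.0486, and with voom on the recovered reads 0.0670. The within-group spread of Thbs2 was at the 90.0th percentile of all tested genes. WT 86 also had the lowest summed level of macrophage markers, 3765 RPKM, and the highest of fibroblast and progenitor markers, 2745 RPKM, of the WT libraries, and their part in its Thbs2 level was not tested.

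Thbs1 was at 71.3, 72.0, 126, 65.3 and 52.8 RPKM in KO 1, 4, 7, 8 and 17, and at 132, 72.9, 78.0, 106 and 77.5 RPKM in WT 2, 9, 19, 86 and 89. KO 7, WT 2 and WT 86 were high and the other 7 libraries low, so the high libraries came from both groups. The 4 other KO-labelled libraries lay below all WT libraries. The log2 difference was -0.29 (95% interval -0.82 to 0.23, limma adjusted p = 0.489). It was -0.48 without KO 7, -0.17 without KO 17 and -0.16 without WT 2, and was called in none of the runs that left out a library. Within a library the ratio of Thbs2 to Thbs1 was 0.150 to 0.574 in the KO-labelled group and 0.251 to 0.988 in WT, where WT 86 was lowest.

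Mgp encodes matrix Gla protein, a small secreted inhibitor of calcification that needs vitamin K-dependent carboxylation and also binds BMPs. It was at 599, 596, 385, 639.7 and 628 RPKM in KO 1, 4, 7, 8 and 17, and at 391, 524, 425, 304 and 484 RPKM in WT 2, 9, 19, 86 and 89. KO 7 lay among the WT libraries and the other 4 above them. The log2 difference was 0.42 (SE 0.18, limma adjusted p = 0.177), and over the 10 runs that left out a library it ranged from 0.31 (without WT 86, adjusted p = 0.318) to 0.56 (without KO 7, adjusted p = 0.0732).

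Tnc, which encodes tenascin-C, a hexameric protein of injured and remodelling tissue, had the lowest level of the 10. It was at 8.91, 6.78, 4.44, 6.70 and 4.83 RPKM in KO 1, 4, 7, 8 and 17, and at 4.51, 4.38, 7.13, 7.30 and 3.96 RPKM in WT 2, 9, 19, 86 and 89. Both groups held low and high libraries. The log2 difference was 0.20 (95% interval -0.28 to 0.68, limma adjusted p = 0.623). It was 0.07 without KO 1, 0.11 without WT 89, 0.30 without WT 19, 0.31 without KO 7 and 0.31 without WT 86, and no such run called it.

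After each group's mean was taken away, the 10 genes did not vary as a block over the 10 libraries. Of 45 pairs 27 had a positive Pearson r, and the median was 0.14. These values are descriptions over 10 libraries that share tissue and processing, with no test. Thbs2 went with Mgp (r = 0.82) and with Tgfbi (0.74), and Tgfbi with Mgp (0.73). KO 7 and WT 86 were each the lowest library of their group in Thbs2, Tgfbi and Mgp alike. Thbs1 ran against Mgp (r = -0.83), Postn (-0.74) and Tgfbi (-0.68): KO 7, WT 2 and WT 86, the 3 libraries with most Thbs1, had the least Mgp.

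**Figure D4:**
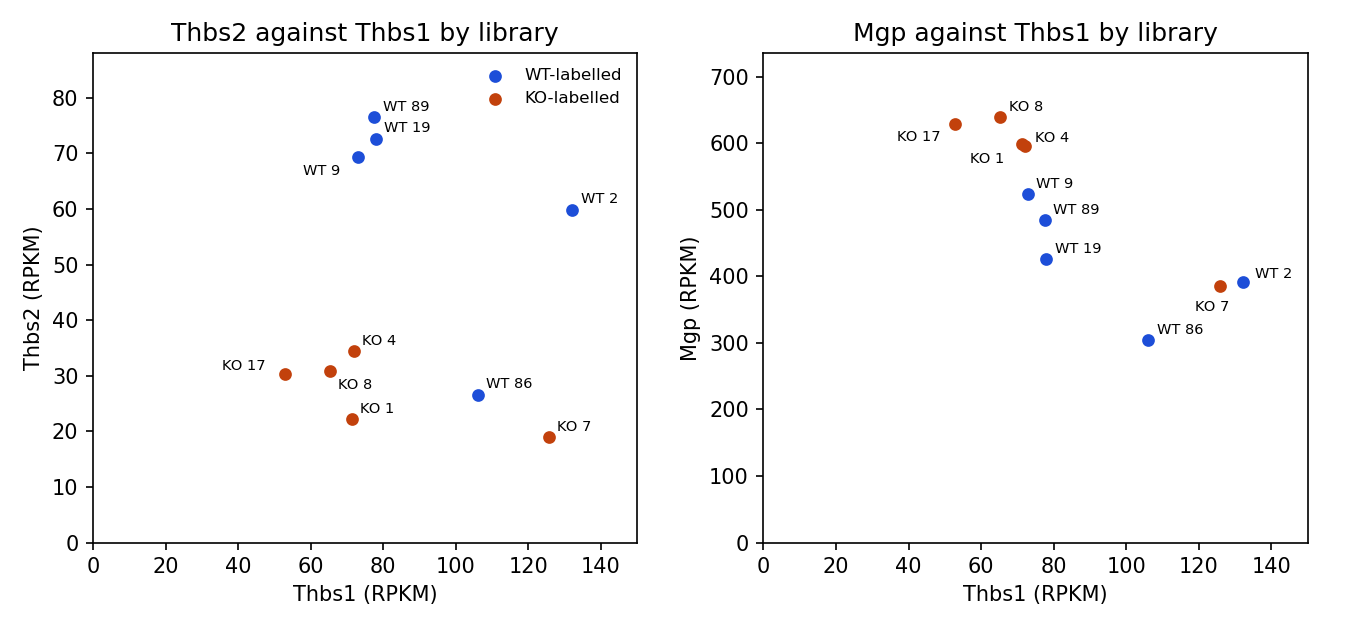
Level of Thbs2 (left) and Mgp (right) against that of Thbs1 in RPKM, each point a library named by its label and animal number. KO 7, WT 2 and WT 86 lie at the right with Thbs1 of 106 RPKM or more and Mgp of 391 RPKM or less, and WT 86 lies among the KO-labelled libraries in Thbs2.

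Among 10798 other genes searched, those most like each of the 10 in this centred pattern were found by the highest r. Thbs1 was most like Socs3 (r = 0.95), a feedback inhibitor of cytokine signalling, and Ptx3 (0.91), a soluble pattern-recognition protein of acute inflammation. Postn was most like Pdgfrb (0.98), the receptor that marks perivascular and stromal cells, and Tnc like Kdelr3 (0.95) and Aldh1a3 (0.95). Thbs2 was most like Inpp5d (0.99) and Stxbp5 (0.97), Dpt like Kyat1 (0.98) and Abhd5 (0.97), and Fn1 like Sh3bp2 (0.91) and Smg8 (0.91). For Sparc, E2f3 (0.97) led, with r of 0.49 within the narrow KO-labelled range. Postn's other nearest gene was Nup155 (0.97) and that of Sparc was Parn (0.95). Sparcl1 was most like Mrpl40 (0.95) and Zrsr1 (0.92), Tgfbi like Mfsd10 (0.96) and Wdr5 (0.95), and Mgp like Iars (0.96) and St3gal4 (0.95). These are the highest of 10798 values for each gene.

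Of 10 tested paralogues (16 listed, 6 of them under the filter), Smoc1, a relative of SPARC, was called lower: it went from 34.5 ± 3.4 RPKM in WT to 15.4 ± 2.2 RPKM (SD, n = 5 each; log2 change -1.14, SE 0.10, limma adjusted p = 1.47e-04), and the others were not called. The most abundant of the others, Fstl1 and Stab1, were at 83.8 and 65.6 RPKM in the KO-labelled libraries and 71.2 and 61.9 in WT. The median log2 change of the paralogues was 0.06 and turned to -0.03 with median-ratio scaling. Beside the counts of this list and those that follow, 4.00% of all tested genes were called higher and 1.95% lower.

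Receptors were called higher in 2 of 17 tested and lower in 0, the integrin genes Itgav (log2 change 0.27, limma adjusted p = 0.0315) and Itga4 (0.25, adjusted p = 0.0439), with a median of 0.16. Itgav encodes the alpha subunit of vitronectin-type receptors, and Itga4 that of receptors of the V120 site. Partners of fibronectin fibrils were called higher in 2 of 15 and lower in 0, Vcan (versican; 0.42, adjusted p = 0.0384) and Efemp2 (fibulin-4; 0.30, adjusted p = 0.0190), with a median of 0.18. Median-ratio scaling ended these 4 calls and left medians of 0.08 and 0.10.

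Of 11 tested genes of vitamin K carboxylation, Gla proteins and bone matrix relatives, 1 was called higher: Spp1, which encodes osteopontin, went from 469 ± 68 to 741 ± 50 RPKM (log2 change 0.67, SE 0.11, limma adjusted p = 0.00871). Gas6, a Gla protein ligand of TAM receptors, had 348 ± 48 RPKM with the KO label and 495 ± 89 with WT (log2 difference -0.50, adjusted p = 0.0582). Ggcx, the carboxylase that Mgp depends on, was at 17.5 ± 1.1 and 15.96 ± 1.5 RPKM (adjusted p = 0.299). With median-ratio scaling 1 gene of this list was called higher and 1 lower.

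TGFb response genes outside the 10 were called higher in 3 of 18 and lower in 0: Timp1 (log2 change 0.90, SE 0.23, limma adjusted p = 0.0481), an inhibitor of matrix proteases, Tgfb3 (0.45, adjusted p = 0.0444) and Skil (0.30, adjusted p = 0.0191). The median was 0.08, below that of all tested genes, and -0.01 with median-ratio scaling, which also ended the 3 calls.

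Markers of the cells that make these proteins were read beside them. Fibroblast and progenitor markers had 1 of 12 called higher, Lum (log2 change 0.47, limma adjusted p = 0.0395), and 1 lower, Gsn (-0.63, adjusted p = 0.0444). The Lum call ended with median-ratio scaling, and the list's median log2 change was 0.16 (0.07 with that scaling). The summed level was 1722 to 2413 RPKM in the KO-labelled libraries and 2016 to 2745 RPKM in WT. Macrophage markers had 1 of 12 higher, Itgam (0.43, adjusted p = 0.0241), with summed levels of 4626 to 5767 and 3765 to 4975 RPKM; the most abundant, Lyz2 and C1qb, had 3066 and 577 RPKM with the KO label and 2762 and 466 with WT. The macrophage list's median log2 change was 0.32, above the 0.25 of the 10 matrix genes, and 0.23 with median-ratio scaling, which ended the Itgam call. Mesothelial markers had 0 of 9 called, with 320 to 383 and 278 to 336 RPKM, and Upk3b and Krt19 led with 93.5 and 68.8 against 85.9 and 61.1 RPKM. Endothelial markers had 1 of 10 lower, Kdr (-0.55, adjusted p = 0.0375), with 120 to 177 and 141 to 180.0 RPKM, and Cdh5 and Pecam1 led with 37.6 and 25.1 against 39.6 and 25.1 RPKM. Smooth muscle and pericyte markers had 2 of 10 lower, Mcam (-1.01) and Cspg4 (-0.79), with 230 to 281 and 244 to 334 RPKM. Of markers of platelets, a source of thrombospondin-1, 0 of 5 tested were called, and Gp1bb and Gp9 were under the filter. Their sum, 51.2 to 68.0 and 45.3 to 60.6 RPKM, was mostly the level of Pf4, 54.8 against 47.7 RPKM. Itga2b, the next, had 1.75 against 1.68 RPKM. The median log2 change was 0.17 for mesothelial, -0.17 for endothelial, -0.08 for smooth muscle and pericyte and 0.04 for platelet markers. Over all tested genes it was 0.09. In none of these lists was a gene at 0 in all 10 libraries, and their part in the levels of the 10 genes was not tested.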

How the data were processed

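Gene and transcript tables of RPKM were deposited by the authors. The submitters' processing notes name bcl2fastq, STAR 2.0.4b1, Subread and featureCounts 1.4.52. The genome build, the annotation, the strand setting and the program behind the transcript values are in none of the sources used here. The transcript unit is known from the table's name only. Identical repeats of a row were dropped, leaving 40503 genes and 84046 transcripts. Whole reads behind the RPKM values, with a tolerance of 0.001 reads, were found for 25121 of 25122 genes above 0 in at least 3 libraries.

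Genes with at least 0.5 RPKM in at least 5 of 10 libraries were tested (17038). The test was limma 3.58.1 under R 4.3.3 on log2(RPKM + 0.5), with trended and robust eBayes (statmod 1.5.0), 2-sided, and Benjamini-Hochberg adjusted over all tested genes, with calls at an adjusted p under 0.05. Because 0.5 is added first, folds of weakly expressed genes are understated. Intervals are 95% intervals of limma's moderated fit. Transcripts were fitted likewise, and transcript shares after an arcsine square root for shares with a mean of 0.05 to 0.95. The fits were tested on simulated data in which every gene had the same set spread beyond counting noise. That run does not cover genes with a wide spread, such as Thbs2. Alternatives were other pseudocounts, filters, scalings between libraries, eBayes settings, array weights, voom on the recovered reads and leaving out each library. Of these, the voom fit was not planned beforehand. Animal numbers alone mark the libraries as separate animals. The limma p-values set a group difference against the spread between animals within groups, moderated across genes. The exact permutation p-values set it against all assignments of the labels. The members and gene lists were chosen with earlier results of these data known. The genes named were the 10 members, up to 4 called genes of each list by size of change, the 2 most abundant where fewer than 2 were called, and the 2 genes most like each member after centring on group means. Ggcx was named after its values were seen. Fn1 exon classes came from GENCODE M21, which holds all 17 deposited Fn1 transcripts.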

Additional observations from a re-analysis of the deposited data

Results flagged for a closer look

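Of 32 groups of 5 values that were screened with Dixon's test (the 10 genes, Med19 and the Fn1 exon classes, in each group), 3 held a library far from the others, and chance flags about 1 in 20 groups. Thbs1 in KO 7, at 126 RPKM, stood above the other KO-labelled libraries, of which the nearest was at 72.0 RPKM. Mgp in the same library, at 385 RPKM, stood below the others, of which the nearest was at 596 RPKM. The share of V120 among full-length Fn1 forms in WT 89, 35.6%, stood above the other WT libraries, which ran from 27.6% to 28.7%. In WT 89 full-length forms also held 54.6% of the summed RPKM of Fn1 transcripts, the most of any WT library.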

How the results depend on the processing

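Dpt was called higher under every alternative run, and Fn1, Postn, Sparcl1, Tnc, Thbs1 and Mgp under none. Of the 10 genes, 3 were called higher, and 1 with median-ratio scaling, 1 with that scaling and without WT 86 (this setting was added once the data had been seen), and 1 to 2 when a library was left out. The count called lower, 0, was 1 with array weights, 1 with a filter at 1 RPKM, 1 with median-ratio scaling without WT 86, and 0 to 1 when a library was left out, in each case Thbs2. Its transcript followed (0 to 1 called lower when a library was left out). Sparcl1 turned to -0.0196, -0.0287 and -0.0106 with median-ratio scaling, quantile normalization and median-ratio scaling without WT 86. Over all genes, the 681 called higher became 103, 149 and 63 with those settings, 292 with no filter, and 188 to 689 when a library was left out, and leaving out a library moved the 332 called lower to 206 to 314. The difference of Med19 (0.09 RPKM) was -0.31 with median-ratio scaling and -0.21 to 0.40 when a library was left out. Leaving out a library, likewise an added setting for Fn1 shares, moved the Fn1 share differences to -1.72 to 2.66 points for V120 and -1.30 to 3.66 for V95, and the exact p, unadjusted, reached 0.0317 for EDA (without WT 89) and EDB (without KO 4) and 0.0476 for V0 (without KO 1). The cause of these changes was not tested. No paired analysis was possible because the groups share no animal number. Depth left at least 460 reads behind every value of the 10 genes.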
